A study of Mus musculus with 2 samples.

Results

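The genes of glycolysis, of lactate production and of the entry of pyruvate into mitochondria were examined in 2 mouse medulloblastomas, a tumour type of the cerebellum. Members were the records whose symbol was on a list of 33 genes, and all 33 were found among 23746 records for 23284 symbols. The gene for muscle-type pyruvate kinase carries its older symbol Pkm2 in the files and stands for Pkm. Expression was measured by RNA sequencing in 1 Brg1KO tumour and 1 WT tumour. The Brg1KO animal had the genotype CAG-CreER, Rosa26-SmoM2, Brg1F/F and the WT animal CAG-CreER, Rosa26-SmoM2, Brg1+/+. Both thus carried the tamoxifen-inducible Cre, driven by the broadly active CAG promoter and so not limited to tumour cells, and the SmoM2 transgene, an activated form of the Hedgehog signal transducer Smoothened. Both received 10 tamoxifen injections, 1 every other day. The ages of the animals are not given in the labels used here. The RNA is that of whole dissected tumours and can include RNA of non-tumour cells. Brg1 is the product of Smarca4, which had 3.76 FPKM in the Brg1KO library and 14.05 FPKM in the WT library. Exons outside the deleted stretch count towards these Smarca4 values.

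Values are FPKM, fragments scaled to transcript length and to library size, so levels of different genes can be set side by side within a library. The summed FPKM was 343028 in the Brg1KO library and 388032 in the WT library, and read counts and depth are unknown. With 1 library per genotype no difference below has an error, a replicate check or a p-value. Effects of genotype and of the individual animal cannot be told apart. "Higher" and "lower" compare these 2 libraries, on the log2 scale after adding 1 FPKM, and a fixed rule of size, at least 2-fold, stood in for a test. In bulk tissue, fewer cells of a type and less RNA per cell cannot be told apart. Markers of mature cerebellar cells were far higher in the Brg1KO library. All 10 granule neuron markers were at least 2-fold higher, with a summed level of 626 FPKM in the Brg1KO library and 104 FPKM in the WT library. The same held for all 8 Purkinje cell markers (755 FPKM in Brg1KO, 11.6 FPKM in WT), all 8 oligodendrocyte markers (717 FPKM in Brg1KO, 71.1 FPKM in WT) and 9 of 10 astrocyte and Bergmann glia markers (1795 FPKM in Brg1KO, 489 FPKM in WT). All 12 markers of dividing cells (304 FPKM in Brg1KO, 1124 FPKM in WT) and 9 of 10 granule precursor and Hedgehog target genes (153 FPKM in Brg1KO, 703 FPKM in WT) were at least 2-fold lower. The part of these cell types in the results below was not tested.

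Glycolysis splits glucose into pyruvate, with hexokinase, phosphofructokinase and pyruvate kinase as its regulated steps. Lactate dehydrogenase interconverts pyruvate and lactate, and the pyruvate dehydrogenase complex commits pyruvate to the citrate cycle unless its kinases switch it off. Several steps have alternative genes: Hk2, Eno1 and Ldha are the forms typical of dividing cells and many tumours, whereas Hk1, Eno2 (neuron-specific enolase) and Ldhb are abundant in mature brain. In the mouse cerebellum, Hedgehog signalling is known to induce Hk2 and aerobic glycolysis in dividing granule neuron precursors, the cells from which this tumour type arises.

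Because the results turn on these 3 pairs of genes, the 250 bases before 1 start site of each are shown. They come from RefSeq on GRCm38.p6, the build also called mm10. The start nearest to the upstream edge of the gene's record was taken, and other starts of these genes were not examined. A value per gene does not show which start was used in these tumours. They are written 5′ to 3′ along the gene's strand. Capitals mark the hypoxia response core, ACGTG or GCGTG, on either strand (CACGT or CACGC when read on the other), to which hypoxia-inducible factors bind.
Hk1, chr10:62379909-62380158, minus strand: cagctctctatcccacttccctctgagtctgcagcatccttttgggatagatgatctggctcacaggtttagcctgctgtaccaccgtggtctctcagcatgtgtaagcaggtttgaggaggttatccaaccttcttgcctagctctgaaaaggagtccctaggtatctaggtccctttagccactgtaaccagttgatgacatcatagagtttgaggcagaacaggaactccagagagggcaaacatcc
Hk2, chr6:82774455-82774704, minus strand: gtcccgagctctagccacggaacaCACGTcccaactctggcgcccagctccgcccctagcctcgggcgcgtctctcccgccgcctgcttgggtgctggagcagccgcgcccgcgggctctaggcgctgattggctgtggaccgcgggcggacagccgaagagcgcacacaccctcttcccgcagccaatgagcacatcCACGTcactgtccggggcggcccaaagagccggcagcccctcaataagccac
Eno2, chr6:124769674-124769923, minus strand: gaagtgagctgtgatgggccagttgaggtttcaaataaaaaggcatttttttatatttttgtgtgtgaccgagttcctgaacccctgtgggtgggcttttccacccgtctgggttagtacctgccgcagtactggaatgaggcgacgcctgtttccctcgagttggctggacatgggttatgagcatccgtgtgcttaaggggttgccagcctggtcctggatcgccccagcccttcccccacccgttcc
Eno1, chr4:150236947-150237196, plus strand: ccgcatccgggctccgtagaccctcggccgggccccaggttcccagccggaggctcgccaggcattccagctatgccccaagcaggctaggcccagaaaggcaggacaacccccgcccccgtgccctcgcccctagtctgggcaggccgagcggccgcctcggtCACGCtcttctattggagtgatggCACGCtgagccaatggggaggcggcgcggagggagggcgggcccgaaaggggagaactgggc
Ldhb, chr6:142507958-142508207, minus strand: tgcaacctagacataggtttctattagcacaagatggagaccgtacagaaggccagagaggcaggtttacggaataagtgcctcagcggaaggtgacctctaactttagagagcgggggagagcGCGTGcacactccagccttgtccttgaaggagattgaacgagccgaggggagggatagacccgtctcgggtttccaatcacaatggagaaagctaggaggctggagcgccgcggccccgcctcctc
Ldha, chr7:46845554-46845803, plus strand: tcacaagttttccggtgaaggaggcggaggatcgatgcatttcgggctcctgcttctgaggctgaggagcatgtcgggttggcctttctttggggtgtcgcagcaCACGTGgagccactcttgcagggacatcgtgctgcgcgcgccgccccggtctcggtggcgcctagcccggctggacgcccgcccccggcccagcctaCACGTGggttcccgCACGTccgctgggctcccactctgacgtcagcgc
No stretch was marked in the windows of Hk1 and Eno2 and 1 in that of Ldhb, against 2 each in Hk2 and Eno1 and 3 in Ldha. In the Ldha window 2 of the 3 stretches are the palindrome CACGTG, an E-box, which holds the core on both strands. Among the 31 members with a RefSeq window (all but Slc2a3 and Slc16a7), 22 windows held the core, or 71.0%, against 38.6% of 32851 windows of all genes and 44.0% of 21263 windows of protein-coding genes. The E-box was in 4 of the 31, or 12.9%, against 6.02% of all windows. The core holds a CG, and base composition differed: the median GC content was 61.6% in the member windows and 55.6% in those of protein-coding genes. Within the printed windows it was 49.6% for Hk1, 54.4% for Eno2 and 56.4% for Ldhb, against 69.6% for Hk2, 71.2% for Eno1 and 67.2% for Ldha. A match describes the letters and says nothing of whether a factor binds there.

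Of the 33 members, 30 reached 1 FPKM in at least 1 library. By the 2-fold rule 11 of these were higher in the Brg1KO library and 0 were lower. Over all 13279 records that passed the same filter, the rule called 16.1% higher and 8.67% lower. The higher members were Eno2, Pfkm, Hk1, Ldhb, Tpi1, Pdk2, Pfkp, Pdk4, Aldoa, Slc2a3 and Pdk1. The median log2 ratio was 0.49 over the 30 members and 0.09 over all expressed records. Summed over all 33 members, the level was 2076 FPKM in the Brg1KO library and 1181 FPKM in the WT library, which made up 0.605% of the Brg1KO sum and 0.304% of the WT sum. With both libraries scaled to an equal FPKM total, the median of all records shifted to 0.25 and that of the members to 0.65. Pfkl and Slc16a1 joined the higher members, while the rule then called 19.4% of all records higher and 6.53% lower. The remaining 3 members, Pgam2, Slc16a3 and Slc16a7, stayed under 1 FPKM in both libraries.

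**Figure D1:**
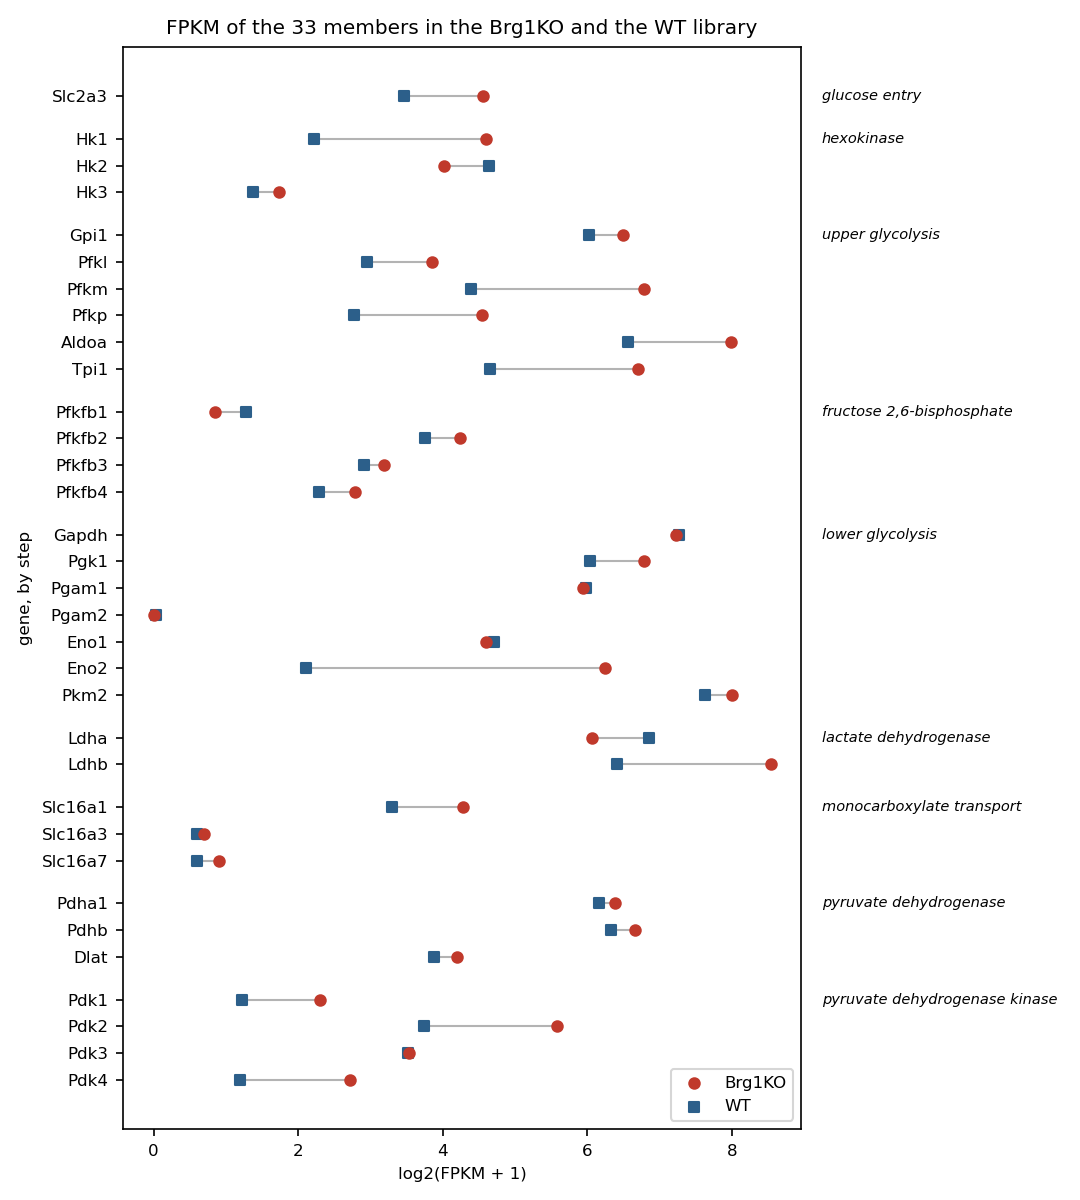
Level of each of the 33 members on a log2(FPKM + 1) axis, with genes grouped by step down the page, circles for the Brg1KO library and squares for the WT library. The widest gap is at Eno2 (75.1 FPKM in Brg1KO, 3.32 FPKM in WT), while Gapdh, Pgam1, Eno1 and Pdk3 nearly coincide, and Hk2, Ldha and Pfkfb1 have the Brg1KO value clearly to the left.

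Glucose enters neurons mainly through the transporter encoded by Slc2a3 (GLUT3). Slc2a3 had 22.4 FPKM in the Brg1KO library and 10.0 FPKM in the WT library, a log2 ratio of 1.09, or 0.92 from the midpoints of the bounds deposited with each value. It thus lay close to the 2-fold line.

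Hexokinase, which traps glucose in the cell as glucose phosphate, had a larger part from Hk1 in the Brg1KO library. Hk1 (chromosome 10, 62268855 to 62379908, mm10), the chief hexokinase gene of adult brain, had 23.1 FPKM in the Brg1KO library and 3.66 FPKM in the WT library, which was 6.31-fold higher (log2 ratio 2.37). Only 2.71% of expressed records had a larger log2 ratio. Hk2 (chromosome 6, 82725027 to 82774454), the Hedgehog-induced form, had 15.3 FPKM in the Brg1KO library and 24.0 FPKM in the WT library (log2 ratio -0.62, or -0.93 from the bound midpoints), which is short of 2-fold. Hk2 was therefore lower by less than the markers of dividing cells, whose median log2 ratio was -1.82, and the difference between these was not tested. Hk3, known for its expression in myeloid cells, had 2.33 FPKM in the Brg1KO library and 1.59 FPKM in the WT library (log2 ratio 0.36). Of 10 microglia and macrophage markers 7 passed the 2-fold rule as higher, and their summed level was 638 FPKM in Brg1KO and 273 FPKM in WT, and their part in the Hk3 value was not tested.

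As a share of the hexokinase FPKM, Hk1 made up 56.8% in the Brg1KO library and 12.5% in the WT library, and Hk2 made up 37.5% in the Brg1KO library and 82.0% in the WT library. The ratio of Hk1 to Hk2 was 1.52 in the Brg1KO library and 0.153 in the WT library. Summed over Hk1, Hk2 and Hk3, the level was 40.7 FPKM in the Brg1KO library and 29.3 FPKM in the WT library. The order of Hk1 and Hk2 within the Brg1KO library depends on which deposited value is read. The FPKM of Hk2 lies outside its own bounds in both libraries, which were 23.8 to 25.4 in Brg1KO and 46.0 to 49.1 in WT. From the bound midpoints, Hk1 made up 46.3% and Hk2 49.0% in the Brg1KO library, against 6.94% and 90.0% in the WT library. By either value the share of Hk1 was higher in the Brg1KO library.

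In the upper part of glycolysis the sum over 6 genes was 589 FPKM in the Brg1KO library and 214 FPKM in the WT library. By the rule 4 of the 6 were at least 2-fold higher, or 66.7%, against 16.1% of all expressed records. Gpi1, which converts glucose phosphate to fructose phosphate, had 89.0 FPKM in the Brg1KO library and 63.9 FPKM in the WT library (log2 ratio 0.47). Phosphofructokinase, the committed step, has 3 genes. The muscle-type gene Pfkm, also the main form in brain, had 108.9 FPKM in the Brg1KO library and 19.9 FPKM in the WT library (5.48-fold, log2 ratio 2.40). Pfkp, the platelet type, had 22.4 FPKM in Brg1KO and 5.85 FPKM in WT (log2 ratio 1.77). Pfkl, the liver type, had 13.5 FPKM in Brg1KO and 6.76 FPKM in WT (log2 ratio 0.90, or 1.01 from the bound midpoints), so it sat at the 2-fold line.

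All 3 phosphofructokinase values were thus higher in the Brg1KO library, and Pfkm led in both. Its share of the family was 75.2% in the Brg1KO library and 61.2% in the WT library. Pfkl made up 9.31% in Brg1KO and 20.8% in WT, and Pfkp 15.5% in Brg1KO and 18.0% in WT. The family sum was 145 FPKM in the Brg1KO library and 32.5 FPKM in the WT library, which was 4.46-fold higher and the largest such ratio among the 7 families compared. All 7 skeletal muscle markers stayed under 1 FPKM in both libraries, with Ckm and Myh4 listed at 0.

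Aldoa, an aldolase that cleaves the phosphorylated sugar, had 251.8 FPKM in the Brg1KO library and 93.4 FPKM in the WT library (log2 ratio 1.42). Tpi1, which equilibrates the resulting triose phosphates, had 103.0 FPKM in Brg1KO and 24.2 FPKM in WT (log2 ratio 2.04). Both were at least 2-fold higher. The 4 Pfkfb genes encode enzymes that make and remove the bisphosphate activator of phosphofructokinase, and 0 of them were past 2-fold. Pfkfb2 had 17.9 FPKM in the Brg1KO library and 12.5 FPKM in the WT library. Pfkfb3, the form with the strongest kinase activity, had 8.13 FPKM in Brg1KO and 6.54 FPKM in WT. Pfkfb4 had 5.89 FPKM in Brg1KO and 3.86 FPKM in WT, while Pfkfb1 had 0.804 FPKM in Brg1KO and 1.42 FPKM in WT. Pfkfb1 reached 1 FPKM only in the WT library.

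The lower part of glycolysis had a summed level of 671 FPKM in the Brg1KO library and 506 FPKM in the WT library. Of its 6 expressed genes 1 was past 2-fold, or 16.7%, near the 16.1% of all expressed records called higher. Gapdh, which oxidises the triose phosphate, had 149 FPKM in the Brg1KO library and 153 FPKM in the WT library (log2 ratio -0.04, or 0.11 from the bound midpoints, so no direction can be given). Pgk1, the first ATP-forming enzyme, had 108.7 FPKM in Brg1KO and 64.5 FPKM in WT (log2 ratio 0.74, or 0.40 from the midpoints). Pgam1, a phosphoglycerate mutase, had 60.5 FPKM in Brg1KO and 62.2 FPKM in WT (log2 ratio -0.04, or 0.05 from the midpoints). Its muscle counterpart Pgam2 was listed at 0 in Brg1KO and had 0.021 FPKM in WT. Pkm2, the record of the last step, had 254.0 FPKM in the Brg1KO library and 197.2 FPKM in the WT library (log2 ratio 0.36). The 2 pyruvate kinase proteins M1 and M2 are splice forms of this 1 gene, so a value per gene does not show which form was present.

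Enolase showed the largest difference among the members. Eno2 (chromosome 6, 124760055 to 124769509), the neuron-specific form, had 75.1 FPKM in the Brg1KO library and 3.32 FPKM in the WT library, 22.6-fold higher (log2 ratio 4.14), and 0.474% of expressed records had a larger log2 ratio. Eno1 (chromosome 4, 150237197 to 150248873), the widely expressed form, had 23.3 FPKM in the Brg1KO library and 25.1 FPKM in the WT library (log2 ratio -0.10, or 0.07 with equal FPKM totals, and overlapping bounds, so no direction can be given). Eno2 made up 76.3% of the pair in Brg1KO and 11.7% in WT, with ratios of Eno2 to Eno1 of 3.22 in Brg1KO and 0.132 in WT. The Eno1 value is uncertain, because a near-identical copy, Gm5506 (now Eno1b), has 2 records. Its record at the Eno1 locus itself, of status LOWDATA, held 5.27e-05 FPKM in the Brg1KO library and 16.8 FPKM in the WT library. The record on another chromosome held 11.5 FPKM in Brg1KO and 0.169 FPKM in WT. With both records added to Eno1 the level was 34.7 FPKM in Brg1KO and 42.0 FPKM in WT (log2 ratio -0.27), and with the record at the Eno1 locus alone it was 23.3 FPKM in Brg1KO and 41.9 FPKM in WT (log2 ratio -0.82). Eno2 then made up 68.4% or 76.3% of enolase FPKM in the Brg1KO library and 7.31% or 7.34% in the WT library.

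Other members also have close copies. By sequence comparison of coding parts, 13 of the 33 members had at least 1 other gene at 90% identity or more over at least 50% of the length. Gapdh had 157 such copies, 150 of them pseudogenes, and 7 had records, which summed to 5.41 FPKM in the Brg1KO library and 9.11 FPKM in the WT library. Ldha had 10, Aldoa and Eno1 6 each, Pkm2 5 and Pgam1 3. How reads that match several places were counted is not given in the sources used here, so levels of these genes, Gapdh above all, are uncertain. No such copy was found for Hk1, Hk2, Hk3, Eno2, the 3 phosphofructokinase genes or the 4 Pdk genes.

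**Figure D2:**
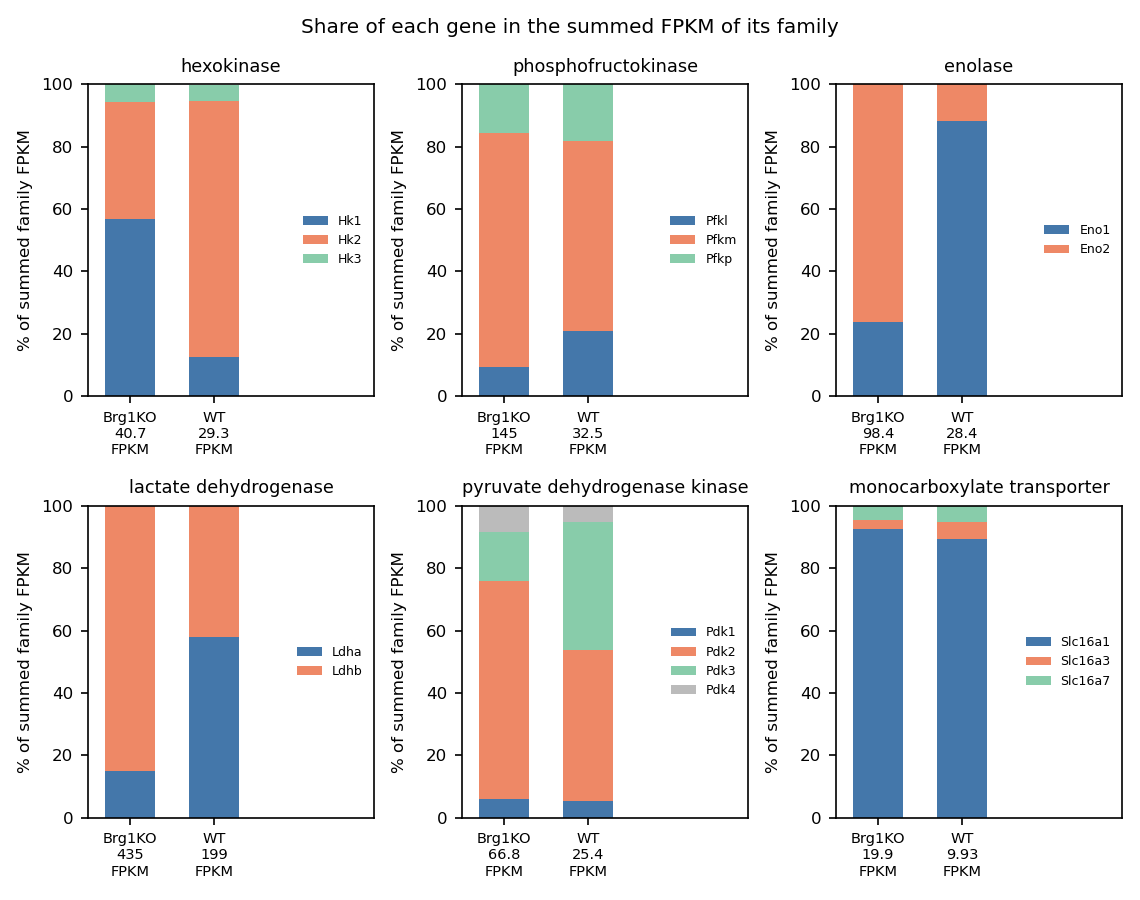
Share of each gene in the summed FPKM of its family, in percent, for 6 families, with the Brg1KO library left of the WT library and the family sum under each bar. By FPKM the leading gene differs between the libraries for hexokinase (Hk1 56.8% in Brg1KO, Hk2 82.0% in WT, but by the bound midpoints Hk2 leads in both), enolase (Eno2 76.3% in Brg1KO, Eno1 88.3% in WT) and lactate dehydrogenase (Ldhb 84.9% in Brg1KO, Ldha 57.8% in WT), while Pfkm, Pdk2 and Slc16a1 lead in both.

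Lactate dehydrogenase also had another leading gene in each library. Ldhb (chromosome 6, 142490249 to 142507943), whose subunit favours the use of lactate, had 369.4 FPKM in the Brg1KO library and 83.8 FPKM in the WT library (4.41-fold, log2 ratio 2.13). Ldhb was the most abundant of the 33 members in the Brg1KO library. Ldha (chromosome 7, 46845804 to 46855627), whose subunit favours lactate production, had 65.7 FPKM in the Brg1KO library and 115 FPKM in the WT library. Its log2 ratio of -0.80 was short of 2-fold, and 87.6% of expressed records had a higher one. By the deposited FPKM it was the lowest among the members, while by the bound midpoints Hk2 was lower (-0.93). Ldhb made up 84.9% of the pair in the Brg1KO library and 42.2% in the WT library. The ratio of Ldhb to Ldha was 5.63 in Brg1KO and 0.729 in WT. The sum of both was 435 FPKM in the Brg1KO library and 199 FPKM in the WT library.

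The difference between the log2 ratios of 2 genes depends little on the scale of a library, apart from the added 1 FPKM, and was also taken. It was 2.99 for Hk1 minus Hk2, 4.24 for Eno2 minus Eno1 and 2.93 for Ldhb minus Ldha. From the bound midpoints these were 3.30, 4.28 and 2.86. The difference was smaller for Pfkm minus Pfkl (1.5), Pfkp minus Pfkl (0.87) and Pdk2 minus Pdk1 (0.76). For Slc16a7 minus Slc16a1 it was negative (-0.69, or -0.57 from the midpoints), with Slc16a7 under 1 FPKM in both libraries. In each of the first 3 pairs the gene of mature brain was at least 2-fold higher in the Brg1KO library, and its partner was within 2-fold. The mature neuron and glia markers given above were higher in the same library, and dividing-cell markers lower.

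Lactate and pyruvate cross membranes through monocarboxylate transporters. Slc16a1 (MCT1), common in endothelium and glia, had 18.5 FPKM in the Brg1KO library and 8.88 FPKM in the WT library. Its log2 ratio of 0.98 lay just inside the 2-fold line through the added 1 FPKM, since the values themselves differed 2.08-fold, and it was 0.75 from the bound midpoints. Endothelial markers had a summed level of 104 FPKM in Brg1KO and 32.4 FPKM in WT. Ly6c1 alone gave 66.5 FPKM of the Brg1KO sum and 10.2 FPKM of the WT sum. Of the 7 expressed markers 2 were at least 2-fold higher and 5 within 2-fold, with a median log2 ratio of 0.94. The part of endothelial cells in the Slc16a1 value was not tested. Slc16a7 (MCT2), the form of neurons, had 0.866 FPKM in Brg1KO and 0.523 FPKM in WT, and Slc16a3 (MCT4), typical of highly glycolytic cells, had 0.618 FPKM in Brg1KO and 0.524 FPKM in WT. Slc16a1 held 92.6% of the transporter FPKM in the Brg1KO library and 89.4% in the WT library.

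Genes of the pyruvate dehydrogenase complex itself were within 2-fold. Pdha1, its catalytic alpha subunit, had 82.2 FPKM in the Brg1KO library and 70.7 FPKM in the WT library (log2 ratio 0.21). Pdhb, the beta subunit, had 99.9 FPKM in Brg1KO and 79.4 FPKM in WT (log2 ratio 0.33). Dlat, the acetyltransferase core, had 17.4 FPKM in Brg1KO and 13.7 FPKM in WT (log2 ratio 0.32). The kinases that inactivate the complex differed more, with 3 of 4 at least 2-fold higher in the Brg1KO library. That is 75% of these 4 genes, against 16.1% of all expressed records. Pdk2, the most widespread kinase, had 46.7 FPKM in Brg1KO and 12.3 FPKM in WT (3.79-fold, log2 ratio 1.84). Pdk4, a kinase induced by fasting, had 5.57 FPKM in Brg1KO and 1.30 FPKM in WT (log2 ratio 1.51). Pdk1, a hypoxia-inducible kinase, had 3.94 FPKM in Brg1KO and 1.33 FPKM in WT (log2 ratio 1.08, or 0.96 from the bound midpoints). Pdk3 had 10.5 FPKM in the Brg1KO library and 10.4 FPKM in the WT library.

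The kinase sum was 66.8 FPKM in the Brg1KO library and 25.4 FPKM in the WT library, 2.63-fold higher, while the sum of the 3 complex genes was 199 FPKM in Brg1KO and 164 FPKM in WT, 1.22-fold higher. Pdk2 made up 70.0% of the kinase FPKM in Brg1KO and 48.6% in WT, and Pdk3 15.8% in Brg1KO and 41.1% in WT.

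**Figure D3:**
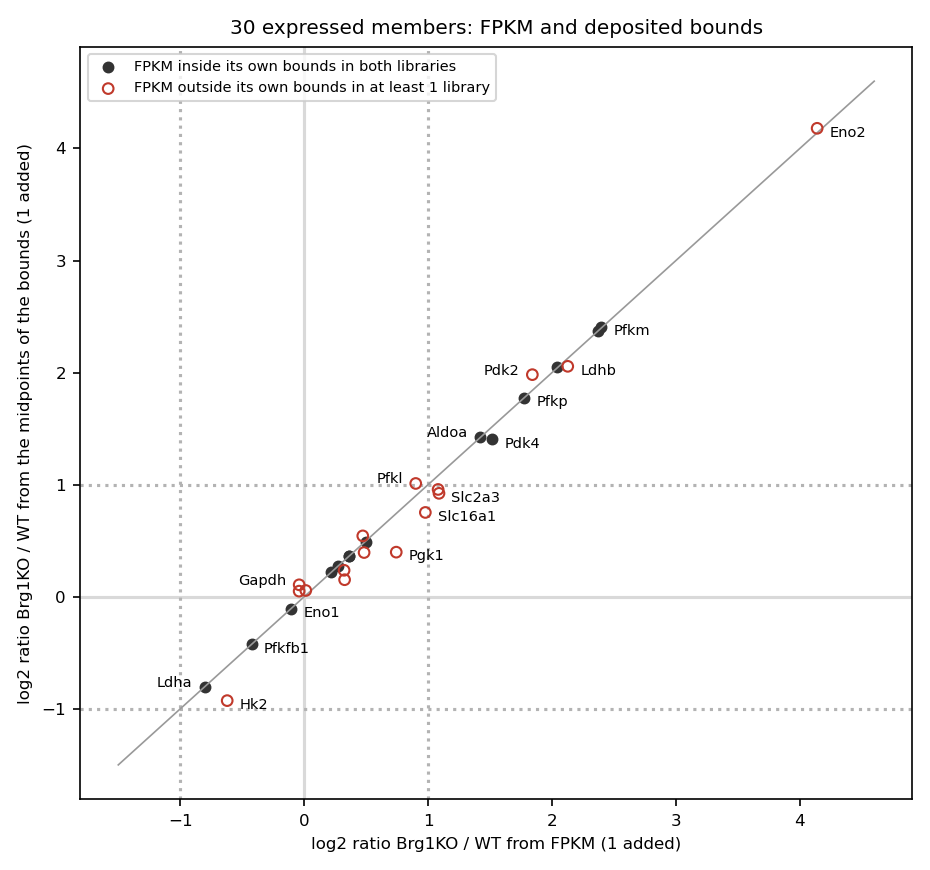
Log2 ratio of Brg1KO over WT for the 30 expressed members, from the FPKM on the horizontal axis and from the midpoints of the deposited bounds on the vertical axis, 1 added to each. Dotted lines mark 2-fold and the diagonal marks equal values. Most members lie on the diagonal, Hk2 (-0.62 and -0.93) and Pgk1 (0.74 and 0.40) lie off it, and Pfkl, Slc2a3 and Pdk1 change sides of the 2-fold line.

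The deposited bounds need care. The FPKM lay inside its own bounds in both libraries for 14 of the 30 expressed members, a share of 46.7%, and for 42.5% of all expressed records. By the bounds alone 24 members did not overlap between the libraries with Brg1KO higher, and 2, Hk2 and Ldha, with Brg1KO lower. Non-overlap was common, at 41.6% of all expressed records with Brg1KO higher and 36.1% with Brg1KO lower. Bounds of 4 members overlapped, namely Pgam1, Eno1, Pfkfb1 and Pdk3. The way the bounds were made is not given in the sources used here.

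Other genes of glucose metabolism, not members, gave a mixed picture. Of 20 further expressed genes of glycolysis, glucose transport and pyruvate handling, 5 were at least 2-fold higher (Slc2a1, Slc2a6, Aldoc, Pdpr and Ldhd) and 1 lower. The 5 make up 25% of the list, while the rule called 16.1% of all expressed records higher and 8.67% lower. The brain aldolase gene Aldoc, a marker of astrocytes and of a subset of Purkinje cells, had 911.9 FPKM in the Brg1KO library and 64.6 FPKM in the WT library, against the 251.8 FPKM of Aldoa in Brg1KO and its 93.4 FPKM in WT. The blood-brain barrier glucose transporter gene Slc2a1 had 42.5 FPKM in Brg1KO and 10.3 FPKM in WT, a larger log2 ratio (1.95) than that of Slc2a3. Pdpr, a regulator of the phosphatase that reactivates pyruvate dehydrogenase, had 9.24 FPKM in Brg1KO and 3.76 FPKM in WT, and Slc2a6, another sugar transporter gene, had 7.94 FPKM in Brg1KO and 1.59 FPKM in WT. Adpgk, an ADP-dependent glucokinase, was lower (5.99 FPKM in Brg1KO, 14.4 FPKM in WT, log2 ratio -1.14), but was within 2-fold with equal FPKM totals. The mitochondrial pyruvate carrier gene Brp44l (Mpc1) had 223.6 FPKM in Brg1KO and 151.5 FPKM in WT.

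Genes of the pentose phosphate pathway, which branches off at glucose phosphate and supplies ribose for nucleotides, had a median log2 ratio of -0.51. By the 2-fold rule 0 of 8 were higher and 2 lower, Pgls (26.8 FPKM in Brg1KO, 61.2 FPKM in WT) and Rpia (5.40 FPKM in Brg1KO, 12.3 FPKM in WT). With equal FPKM totals 0 were lower and 1, G6pdx (30.4 FPKM in Brg1KO, 16.3 FPKM in WT), was higher. The shares over all records were 16.1% higher and 8.67% lower, or 19.4% and 6.53% with equal FPKM totals. Taldo1 had 52.9 FPKM in Brg1KO and 70.8 FPKM in WT. Of 9 glycogen genes the rule called 0 lower and 3 higher, or 33.3% against 16.1% of all expressed records. These were the phosphoglucomutase gene Pgm2 (31.9 FPKM in Brg1KO, 5.98 FPKM in WT) and the glycogen phosphorylase genes Pygb (42.4 FPKM in Brg1KO, 11.3 FPKM in WT) and Pygm (26.3 FPKM in Brg1KO, 8.16 FPKM in WT). Ugp2 had 26.2 FPKM in Brg1KO and 20.8 FPKM in WT.

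Citrate cycle genes had a median log2 ratio of 0.29 over 16 expressed genes. Mdh2 had 152.8 FPKM in Brg1KO and 136.0 FPKM in WT, and Sdhd had 129.7 FPKM in Brg1KO and 107.0 FPKM in WT. Among 8 genes of the shuttles that carry reducing power from glycolysis into mitochondria, 5 were at least 2-fold higher, Got1 (52.5 FPKM in Brg1KO, 9.78 FPKM in WT), Gpd1 (35.5 FPKM in Brg1KO, 11.7 FPKM in WT), Slc25a12 (35.7 FPKM in Brg1KO, 15.1 FPKM in WT), Mdh1 (184.1 FPKM in Brg1KO, 86.5 FPKM in WT) and Gpd2 (17.8 FPKM in Brg1KO, 8.36 FPKM in WT). The 5 make up 62.5% of the list, against 16.1% of all expressed records called higher. Gpd2, with a log2 ratio of 1.004, was within 2-fold after division by the upper quartile. The aspartate-glutamate carrier gene Slc25a13 was lower (0.815 FPKM in Brg1KO, 4.68 FPKM in WT), the opposite of its paralogue Slc25a12, and Got2 had 48.3 FPKM in Brg1KO and 42.7 FPKM in WT.

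Hypoxia-inducible factors control many of the members, so the factors and targets of theirs outside glycolysis were read beside them. Of 17 such genes 3 were at least 2-fold higher, Bnip3 (69.9 FPKM in Brg1KO, 14.4 FPKM in WT), Ndrg1 (8.55 FPKM in Brg1KO, 1.71 FPKM in WT) and Car9 (2.95 FPKM in Brg1KO, 0.268 FPKM in WT), and 0 were lower. The 3 make up 17.6% of the list, near the 16.1% of all expressed records called higher. Ddit4 had 61.8 FPKM in Brg1KO and 38.7 FPKM in WT, and Bnip3l had 61.2 FPKM in Brg1KO and 54.8 FPKM in WT. Hif1a itself had 33.7 FPKM in the Brg1KO library and 22.6 FPKM in the WT library (log2 ratio 0.56), and Vegfa, the target that drives vessel growth, had 7.32 FPKM in Brg1KO and 10.3 FPKM in WT (log2 ratio -0.44). The median of the list was 0.43, against 0.09 over all expressed records.

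**Figure D4:**
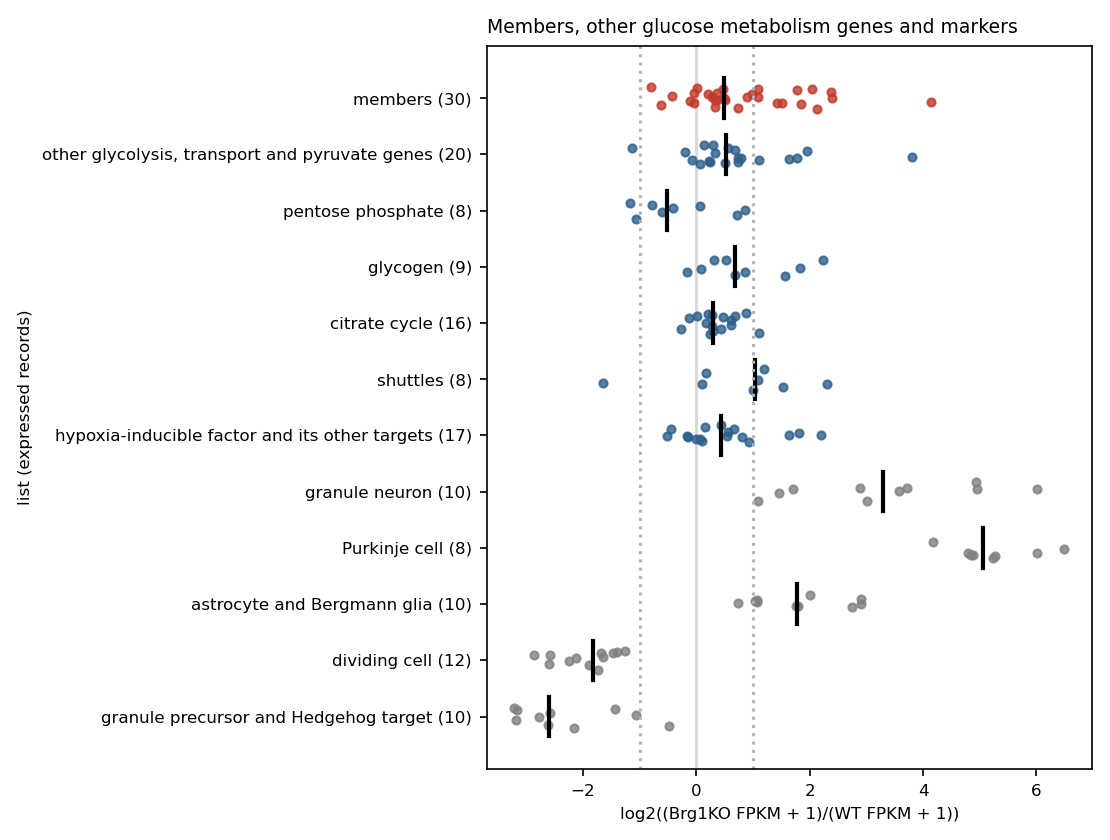
Log2 ratio of Brg1KO over WT for every expressed record of the members (top), 6 lists of other glucose metabolism and hypoxia genes, and 5 marker lists, with the number of records in brackets, a black bar at each median and dotted lines at 2-fold. The member median is 0.49, the pentose phosphate median is -0.51, and the granule neuron (3.29) and dividing cell (-1.82) markers lie far to the right and left.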

How the data were processed

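RNA was sequenced from 1 Brg1KO and 1 WT tumour. Per the file headers, the authors deposited an FPKM for each gene, with lower and upper bounds and a status. Cuffdiff 2.1.1 and mm10 are named in the submitters' processing notes, with no role. Aligner, annotation and filters: not given in the sources used here. Among 650 genes under 0.05 FPKM in both libraries no step of whole reads was found, so no count test was possible and depth is unknown.

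Records were joined on symbol, locus and start-site label. Records reaching 1 FPKM in either library were kept, and log2((Brg1KO FPKM + 1)/(WT FPKM + 1)) was called at 1 or more, or -1 or less. The added 1 FPKM makes differences of low genes smaller. The rule, but not the shares, was run on simulated data, with 4-fold differences planted in records above 5 FPKM and an assumed noise level. With 1 library per genotype the real noise is unknown, so that run gives no error rate for these data. The members and lists were chosen with earlier results of these data known. All members were named. Of the other glucose metabolism genes, those past 2-fold with at least 5 FPKM in 1 library and the 2 most abundant of each list were named, plus Ldhd, Slc25a13, Car9, G6pdx, Hif1a and Vegfa, picked after their values were seen. Not every gene that the rule took is reported here. Coordinates count from 1 on mm10. Copies were sought with blastn 2.17.0 among GENCODE M21 transcripts. Promoter windows came from RefSeq (GRCm38.p6), 1 per gene, the start nearest to the record's edge. That start lay 13205 bases from the edge for Pfkfb2 and 583 bases for Slc16a3, and both windows are counted among those with the core. Alternatives were other pseudocounts, scalings, filters and thresholds, the bound midpoints, and leaving out records of status FAIL or LOWDATA. Computations ran in Python 3.11.15 with pandas 2.3.3 and numpy 2.4.6, and plots in matplotlib 3.10.9.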

Additional observations from a re-analysis of the deposited data

How the results depend on the processing

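The count of members at least 2-fold higher was 11 and ranged from 10 to 13 over other pseudocounts, scalings and the bound midpoints, with 0 lower each time. Over the same settings the rule called 14.1% to 21.4% of all records higher and 6.53% to 10.9% lower. The member count was 9 of 25 with a mean of at least 5 FPKM (13.8% of all such records) and 5 with a 4-fold rule (4.17% of all records). With a 1.5-fold rule 14 were higher and 2 lower (Hk2 and Ldha), against 28.1% and 18.0% of all records. Among the 14 members whose FPKM lay inside its own bounds, a choice made after seeing the data, 6 were at least 2-fold higher. The share called among all records inside their own bounds was not computed, so this count has no background beside it. The median of members was 0.65 with equal FPKM totals. Of 212 log2 ratios of single members whose value an alternative changed, 203 stayed on their side of 2-fold, 6 moved past it (Slc16a1 or Pfkl), 3 moved inside it (Pdk1 or Slc2a3), and 0 called ones changed sign. Those of Gapdh, Pgam1, Eno1 and Pdk3, all near 0, did under at least 1 alternative. From the bound midpoints the hexokinase shares were 46.3% (Hk1) and 49.0% (Hk2) in Brg1KO, against 6.94% and 90.0% in WT, the share of Pfkfb2 among Pfkfb genes was 46.5% in Brg1KO and 44.7% in WT, and the contrast of Pdk2 minus Pdk1 was 1.02, past 2-fold. With both Gm5506 records added to Eno1, also chosen after seeing the data, Eno1 made up 31.6% and Eno2 68.4% of enolase FPKM in Brg1KO. The cause of these shifts was not tested. With FPKM only, the error from read depth cannot be given. No paired analysis was possible because each genotype has 1 library.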
